A study of Bos taurus with 40 samples.

Results

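Liver and longissimus dorsi muscle, a muscle of the back, were compared within the same 10 Korean cattle, 5 cows and 5 bulls, by RNA-seq of 1 library per animal and tissue. These 20 libraries belong to a panel of 4 tissues, which also holds abdominal fat and pituitary gland and has 40 libraries in all. They were slaughtered when more than 22 months old, and the labels give no treatment. The samples are pieces of whole tissue, so each library holds the RNA of all cell types in the piece. Liver and muscle were paired by the ear tag in the labels, and animals are named by sex and number, such as cow 4 or bull 2. The comparison was described across isoenzymes and isoforms, that is, proteins of like function made by separate genes. For this, 202 members of 69 families were listed from textbook knowledge, with earlier results of these data known. They fall in 8 groups, and each is listed with the tissue it is known from. Of these members, 184 have a row in the count tables, which hold 13570 named genes. A low-count filter kept 169 of them, and of the 15 others only G6PC2 had no read in any of the 20 libraries.

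Isoenzymes catalyse the same reaction but differ in affinity, regulation or place in the cell, and many families have a member known from liver and another from skeletal muscle. Liver releases glucose into the blood from glycogen, lactate and, in ruminants, mainly propionate, and it also makes ketone bodies, urea and plasma proteins. Skeletal muscle consumes glucose and fatty acids for contraction, buffers ATP with phosphocreatine and, since it lacks glucose-6-phosphatase activity, keeps its glycogen for itself.

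Between 5173092 and 16532755 reads per library were counted on named genes (median 10005607), so that 3 reads correspond to 0.181 to 0.58 CPM. Lower levels given here rest on fewer reads. Levels are TMM-scaled CPM, read counts relative to library size, which compare libraries for 1 gene but not genes of different length. The tissue labels were checked with marker genes. The 8 hepatocyte markers summed to 108988 to 260677 CPM (median 185962) in liver and 11.2 to 119 CPM (median 59.5) in muscle. The 6 myofibre markers with a row summed to 37441 to 89669 CPM (median 69478) in muscle and 2.57 to 93.5 CPM (median 9.99) in liver, where the library of bull 2 stood apart, since the next highest liver held 18.6 CPM. No marker of these lists was at 0 in every library of the other tissue. The liver library labelled bull 3 held 966 CPM of XIST, here without TMM scaling, and no read of the Y-linked DDX3Y, USP9Y and ZFY. This goes against its label. The library was most like the liver of cow 4 (Pearson r 0.9935 over genes) while still differing beyond sampling noise. It was kept as a liver, and counts are given with and without this animal. In bulk tissue, fewer cells of a type and less RNA per cell cannot be told apart.

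The first question was how far the tissues differed among family members. The edgeR quasi-likelihood test with animal as a block was fitted to the 9927 genes past a low-count filter, with Benjamini-Hochberg adjustment over all of them and a threshold of 0.05. A positive log2 fold change means higher in liver. Of the 169 members past the filter, 60 were higher in liver, 86 were higher in muscle and 23 passed in neither direction. Among all genes tested, 37.2% were higher in liver and 34.8% in muscle. At a difference of at least 2-fold, the counts were 49 and 83 members, against 25.5% and 22.8% of all genes. The median absolute log2 fold change was 3.08 over the members and 0.96 over all genes tested; since the members were listed for known tissue differences, nothing is read from this contrast. Without bull 3, 59 members were higher in liver and 85 in muscle. The animals are separate, but each tissue of an animal was sampled once, so the tests measure the spread among animals.

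**Figure D1:**
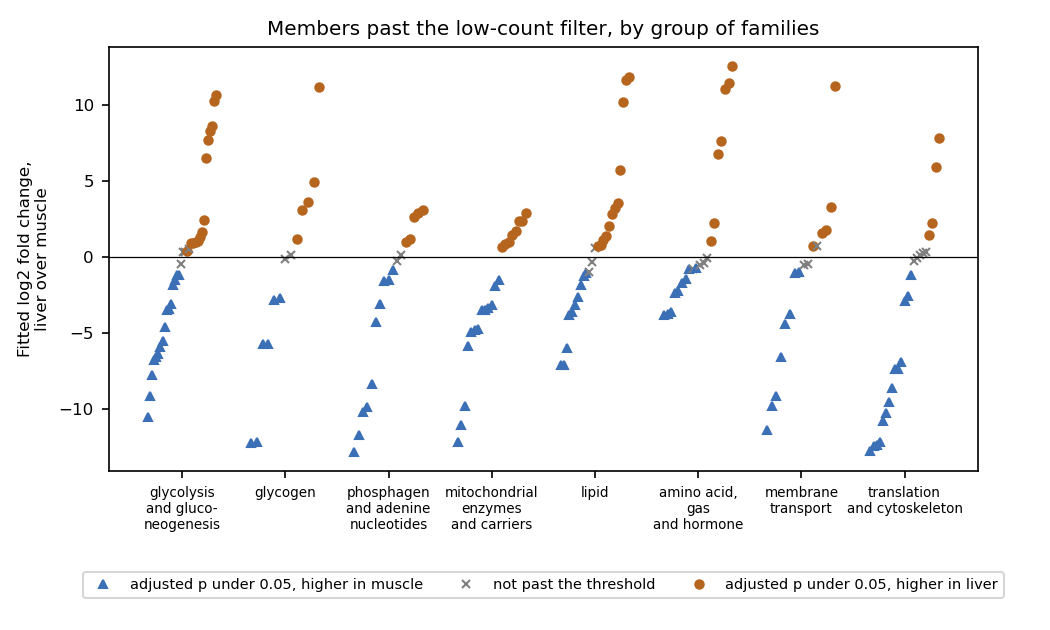
Fitted log2 fold change of liver over muscle (vertical axis) for the 169 members past the low-count filter, sorted within 8 groups of families (horizontal axis); circles and triangles mark adjusted p under 0.05 and crosses the rest. In the amino acid, gas and hormone group the liver side reaches further than the muscle side, from -3.84 to 12.53, whereas in the phosphagen group the muscle side reaches further, from -12.83 to 3.06.

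Called members were also counted by group of families. Over all genes tested, 37.2% were higher in liver and 34.8% in muscle, and the liver share of several groups lies near this. Among the 34 tested members of glycolysis and gluconeogenesis, 14 were higher in liver and 16 in muscle, and among the 25 of lipid metabolism, 12 and 10. Muscle had more of the called members in the phosphagen and adenine nucleotide group (10 of 17 against 5 in liver), in the mitochondrial group (13 of 21 against 8) and in translation and cytoskeleton (14 of 23 against 4). In the glycogen group, 5 of 13 were higher in liver and 6 in muscle. In membrane transport the counts were 5 and 8 of 16, and in the amino acid, gas and hormone group 7 and 9 of 20. These shares were not tested against each other.

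Members used by 1 tissue only were then taken by a rule of level: at least 10 CPM in all 10 libraries of a tissue, and in all 10 of the other either under 1 CPM or under 1% of the lowest library of the first. By this rule, 11 members were used by liver only and 20 by muscle only. Of all genes with a read in any of the 20 libraries, 1.99% were liver-only and 1.02% muscle-only by this rule. The liver-only members named here were PKLR, G6PC, GYS2, FABP1, LIPC, ARG1, MAT1A, DIO1 and SLC2A2. The muscle-only members named here were PGAM2, ENO3, PYGM, PPP1R3A, CKM, CKMT2, AMPD1, PRKAG3, COX6A2, COX8B, UCP3, ATP2A1, RYR1, EEF1A2, ACTA1, TPM2, ACTN2, ACTN3 and DES. Each of them was listed for the tissue in which it was found, in a list made with earlier results of these data known. The test uses the same counts as the rule, so its fold changes are a description here: log2 fold changes ran from 8.58 to 12.53 in the liver-only members and from -12.83 to -8.65 in the muscle-only ones.

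**Figure D2:**
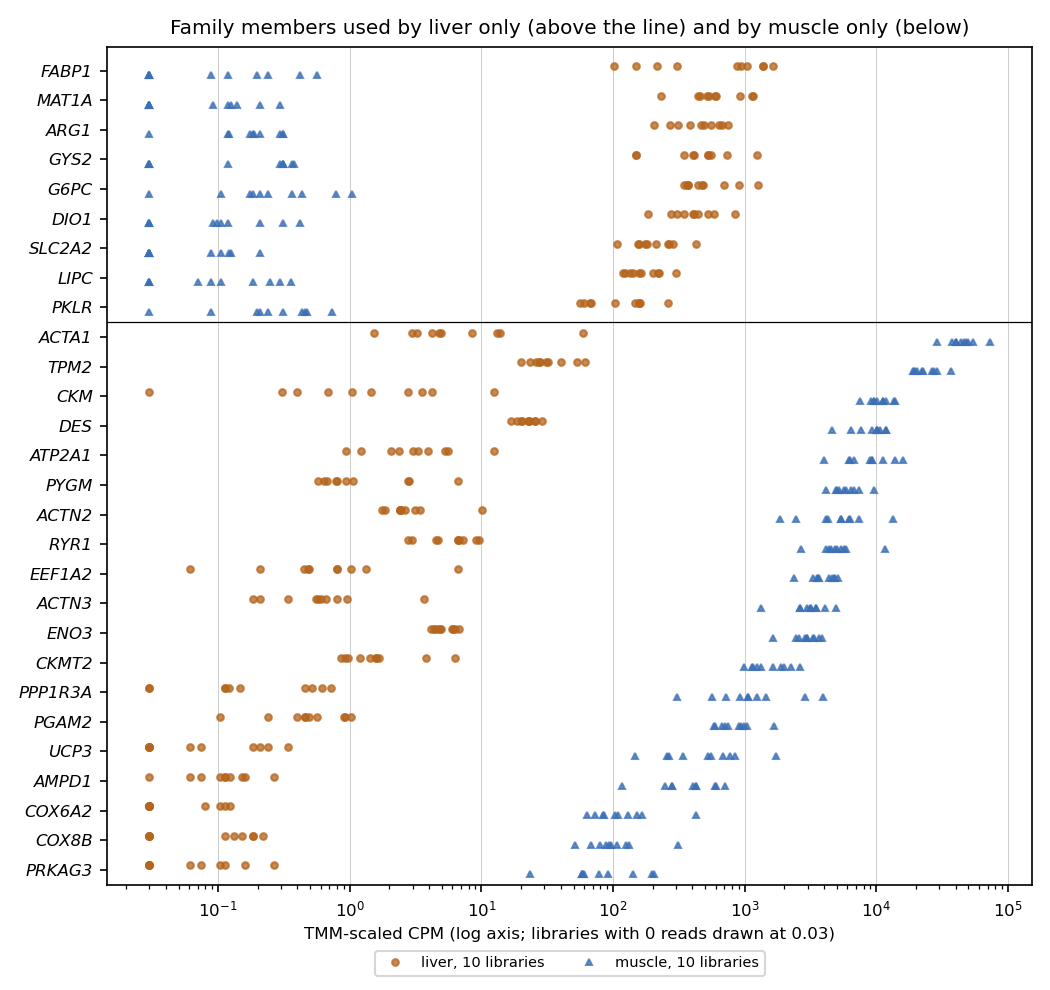
Levels of 28 members used by 1 tissue only (rows), in TMM-scaled CPM on a log axis, with 1 circle per liver library and 1 triangle per muscle library. The lowest library of the using tissue was 77.4 to 790 times the highest of the other in the liver-only members and 88.6 to 623 times in the muscle-only members.

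The off state was not alike in the 2 classes. In 8 of the 11 liver-only members every muscle library was under 1 CPM, and over all 11 the 10 muscle libraries together held 8 to 182 reads of a member (median 21). In 6 of the 20 muscle-only members every liver library was under 1 CPM, and the other 14 met the rule by the 1% limit alone. Over all 20 muscle-only members, the 10 livers together held 5 to 3671 reads of a member (median 151). TPM2 and DES stayed at 19.8 to 61.0 CPM (median 29.3) and 16.9 to 28.8 CPM (median 22.8) in liver, and count as muscle-only because muscle held 19097 to 37017 CPM (median 22404) and 4613 to 11848 CPM (median 10071).

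Glucose enters and leaves the hepatocyte through GLUT2, encoded by SLC2A2, and enters muscle through the insulin-regulated GLUT4, encoded by SLC2A4. SLC2A2 was at 106 to 426 CPM (median 197) in liver and at 0 to 0.209 CPM in muscle, where 5 of 10 libraries had no read. SLC2A4 was at 69.2 to 512 CPM (median 204) in muscle and 1.14 to 3.22 CPM (median 1.84) in liver (log2 fold change -6.58, SE 0.32, adjusted p = 4.8e-11). The carriers of the family known from other tissues differed less: SLC2A3 was higher in muscle (log2 fold change -1.08, SE 0.12, adjusted p = 1.2e-05), and SLC2A1 did not pass the test (log2 fold change 0.74, SE 0.50, adjusted p = 0.13).

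HK1, the broadly used hexokinase, was at 9.5 to 26.6 CPM (median 18.9) in liver and 23.7 to 53.3 CPM (median 40.2) in muscle (log2 fold change -1.22, SE 0.16, adjusted p = 9.0e-06), and was lower in liver in all 10 animals although the ranges overlapped. HK2, the hexokinase known from muscle, was not analysed here. G6PC, the liver glucose-6-phosphatase that releases free glucose, was at 344 to 1261 CPM (median 455) in liver and reached 1.04 CPM in muscle. Its broadly used relative G6PC3 differed by less than 2-fold (log2 fold change 0.92, SE 0.13, adjusted p = 1.1e-04).

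Of the 12 families of glycolysis and gluconeogenesis with at least 2 tested members, 7 had a member at least 2-fold higher in each tissue. Over all genes tested, 25.5% were at least 2-fold higher in liver and 22.8% in muscle. ALDOA, the aldolase form that prevails in muscle, was at 6800.2 to 22872 CPM (median 11702) in muscle and 74.8 to 187 CPM (median 124) in liver (log2 fold change -6.59, SE 0.18, adjusted p = 2.9e-11). PKLR, the liver pyruvate kinase, was at 56.4 to 263 CPM (median 125) in liver and at most 0.729 CPM in muscle. PKM was at 1685 to 5839 CPM (median 3109) in muscle and 25.8 to 55.3 CPM (median 38.1) in liver (log2 fold change -6.38, SE 0.20, adjusted p = 1.1e-11). The ranges of the tissues did not overlap for any of these 3 genes. In phosphoglycerate mutase and enolase the muscle forms were used by muscle only, whereas the broad forms were used by both tissues. PGAM2 was at 587 to 1661 CPM (median 828) in muscle and 0.104 to 1.03 CPM (median 0.473) in liver, and ENO3 at 1647 to 3887 CPM (median 2963) and 4.12 to 6.79 CPM (median 4.86). PGAM1 and ENO1 were higher in liver by a much smaller difference (log2 fold change 1.29, SE 0.13, adjusted p = 1.5e-06 for PGAM1, and log2 fold change 1.60, SE 0.16, adjusted p = 9.3e-07 for ENO1). Fructose bisphosphatase, which works in the opposite direction, was divided as well: FBP1 was at 199.9 to 753 CPM (median 360.2) in liver and 0.831 to 11.9 CPM (median 1.5) in muscle (log2 fold change 7.65, SE 0.39, adjusted p = 9.9e-11), and FBP2 at 143 to 467 CPM (median 389) in muscle and 0.793 to 20.01 CPM (median 4.31) in liver (log2 fold change -5.93, SE 0.42, adjusted p = 1.3e-09).

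Phosphofructokinase, the committed step, was less balanced. PFKM was at 1166 to 4316 CPM (median 2550.0) in muscle and 6.07 to 19.9 CPM (median 11.5) in liver (log2 fold change -7.78, SE 0.18, adjusted p = 1.2e-12). PFKL, the liver form, was only moderately higher in liver, at 20.4 to 54.9 CPM (median 41.2) against 11.8 to 35.9 CPM (median 18.5), with overlapping ranges and 9 of 10 animals higher in liver (log2 fold change 0.89, SE 0.19, adjusted p = 4.6e-04). PFKP was higher in muscle (log2 fold change -1.52, SE 0.20, adjusted p = 4.9e-06). The kinases that make its activator fructose 2,6-bisphosphate split by member: PFKFB1 was at 93.5 to 265 CPM (median 120.4) in liver and 16.01 to 54.7 CPM (median 23.7) in muscle (log2 fold change 2.41, SE 0.15, adjusted p = 3.7e-09), whereas PFKFB3 and PFKFB4 were at 152 to 1667 CPM (median 437) and 86.3 to 490.0 CPM (median 228) in muscle and at 8.72 to 32.1 CPM (median 21.4) and 0.907 to 3.57 CPM (median 1.999) in liver. PFKFB4, known from testis, had a log2 fold change of -6.77 (adjusted p = 9.2e-12).

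In lactate dehydrogenase, LDHB was listed for liver and LDHA for muscle, and of this pair only LDHA passed the test. LDHA, which encodes the M subunit, was at 158 to 499 CPM (median 388) in muscle and 7.63 to 80.5 CPM (median 24.3) in liver (log2 fold change -3.52, SE 0.36, adjusted p = 1.2e-07). LDHB, which encodes the H subunit, was at 131 to 474 CPM (median 321) in liver and 70.3 to 588 CPM (median 215) in muscle and did not pass the test (log2 fold change 0.52, SE 0.47, adjusted p = 0.27). It was higher in liver in 6 of 10 animals. LDHD, which acts on D-lactate and is not an L-lactate isoenzyme, was higher in liver (log2 fold change 1.01, SE 0.26, adjusted p = 0.0013).

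The gluconeogenic phosphoenolpyruvate carboxykinases both belonged to liver. PCK1, the cytosolic form, was at 336 to 2389.5 CPM (median 1830.2) in liver and 1.14 to 9.03 CPM (median 3.89) in muscle (log2 fold change 8.28, SE 0.32, adjusted p = 1.4e-11). PCK2, the mitochondrial form, was at 210.5 to 624 CPM (median 297) and 0.919 to 12.8 CPM (median 3.19) (log2 fold change 6.51, SE 0.40, adjusted p = 6.1e-10). Entry of pyruvate into the mitochondrial cycle is set by pyruvate dehydrogenase kinases and phosphatases. PDK4 was higher in muscle in all 10 animals, at 120.1 to 9067 CPM (median 2509) against 15.4 to 218 CPM (median 69.9) (log2 fold change -5.51, SE 0.76, adjusted p = 6.3e-06), while PDK1 and PDK2 did not pass the test (adjusted p = 0.19 and 0.12). PDP1, a phosphatase that switches the complex back on, was at 96.4 to 176 CPM (median 122) in muscle and 9.95 to 18.4 CPM (median 15.4) in liver (log2 fold change -3.10, SE 0.14, adjusted p = 1.1e-10). All 3 glycerol-3-phosphate dehydrogenases were higher in muscle, among them GPD1, which was listed for liver (log2 fold change -1.17, SE 0.27, adjusted p = 7.8e-04).

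Glycogen enzymes gave some of the widest separations. PYGM, muscle phosphorylase, was at 4144 to 9618 CPM (median 5765) in muscle and 0.572 to 6.65 CPM (median 0.865) in liver. PYGL, liver phosphorylase, was at 619 to 1689.8 CPM (median 998) in liver but kept 12.3 to 47.2 CPM (median 34.9) in muscle (log2 fold change 4.90, SE 0.22, adjusted p = 8.1e-11), and the brain form PYGB did not pass the test (log2 fold change -0.16, SE 0.21, adjusted p = 0.52). Both PYGM and PYGL were read in every library of the other tissue.

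GYS2, the liver glycogen synthase, was at 148 to 1232 CPM (median 469.8) in liver and under 0.4 CPM in every muscle library. GYS1, the muscle synthase, was near 0 in both tissues, with 54 reads over the 10 muscles, at 0.0982 to 0.964 CPM, and 4 reads over the 10 livers. Neither glycogen synthase thus reached 1 CPM in any muscle library, while the protein that primes glycogen, GYG1, was at 318 to 604 CPM (median 402) in muscle and 4.48 to 11.4 CPM (median 8.99) in liver (log2 fold change -5.71, SE 0.19, adjusted p = 4.3e-12). How much of GYS1 the authors' gene annotation covers was not tested.

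The regulators of glycogen breakdown and storage divided in the same way by member. PPP1R3A, which brings protein phosphatase 1 to glycogen in muscle, was at 305 to 3911 CPM (median 1058) in muscle and 0 to 0.715 CPM (median 0.134) in liver. PPP1R3B, its liver relative, was at 65.3 to 217 CPM (median 130.2) in liver and 6.35 to 26.9 CPM (median 16.3) in muscle (log2 fold change 3.08, SE 0.22, adjusted p = 3.0e-09). PPP1R3C did not pass the test (log2 fold change 0.14, SE 0.39, adjusted p = 0.72). Phosphorylase kinase had its catalytic subunit PHKG1 at 51.0 to 171 CPM (median 71.1) in muscle and 0.396 to 2.71 CPM (median 1.4) in liver (log2 fold change -5.72, SE 0.38, adjusted p = 2.9e-10), and PHKG2 at 7.26 to 13.5 CPM (median 9.84) in liver and 2.17 to 7.03 CPM (median 4.49) in muscle (log2 fold change 1.14, SE 0.12, adjusted p = 1.3e-05). The phosphoglucomutase PGM1 and its muscle relative PGM5 were both higher in muscle (log2 fold changes -2.73 and -2.81, adjusted p = 1.5e-08 and 9.6e-11).

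The phosphagen system was a muscle system. CKM, muscle creatine kinase, was at 7546 to 13813 CPM (median 10664) in muscle and 0 to 12.4 CPM (median 1.25) in liver, and CKMT2, the mitochondrial form of striated muscle, at 995 to 2651 CPM (median 1486) and 0.857 to 6.35 CPM (median 1.5). CKB, the brain form, was the member of the family that was higher in liver, at only 9.89 to 37.7 CPM (median 16.4) against 1.66 to 5.61 CPM (median 2.94) (log2 fold change 2.60, SE 0.25, adjusted p = 1.1e-07). Adenylate kinase, which balances ATP, ADP and AMP, had AK1 at 217 to 619 CPM (median 428) in muscle and 0.264 to 2.33 CPM (median 1.31) in liver, just outside the rule.

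The purine nucleotide cycle, which removes AMP during contraction, changed its members as well. AMPD1 was at 117 to 706 CPM (median 416) in muscle and at most 0.264 CPM in liver. AMPD2 was at 59.6 to 141 CPM (median 97.0) in liver and 7.48 to 48.8 CPM (median 11.6) in muscle (log2 fold change 2.91, SE 0.26, adjusted p = 3.3e-08). ADSSL1 and ADSS, the muscle and the broad adenylosuccinate synthase, were higher in muscle and in liver (log2 fold changes -4.31 and 1.16, adjusted p = 1.5e-08 and 4.3e-05). In AMP-activated kinase, both catalytic subunits, PRKAA1 and PRKAA2, and both beta subunits were higher in muscle, with log2 fold changes of -1.51, -1.58, -0.88 for PRKAB1 and -3.09 for PRKAB2 (highest adjusted p 7.2e-06). Its gamma subunit PRKAG3 was at 23.4 to 205 CPM (median 69.2) in muscle and at most 0.264 CPM in liver, and PRKAG1 was higher in liver (log2 fold change 0.95, SE 0.13, adjusted p = 4.1e-05).

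Cytochrome c oxidase, the last enzyme of the respiratory chain, has subunits with a heart and muscle form and a liver form, and all 3 pairs measured were opposed. COX6A2 was at 63.4 to 428 CPM (median 105) in muscle and held 5 reads over the 10 livers, and COX8B was at 51.5 to 311 CPM (median 94.4) in muscle and held 12 reads over the livers. COX7A1 was at 17.8 to 299.9 CPM (median 52.2) in muscle and 0.104 to 2.38 CPM (median 0.788) in liver. Their counterparts were higher in liver but never off in muscle: COX6A1 was at 27.3 to 139 CPM (median 55.9) against 6.77 to 22.1 CPM (median 12.1) (log2 fold change 2.38, SE 0.22, adjusted p = 4.9e-08), COX7A2 had a log2 fold change of 1.45 (adjusted p = 1.1e-04) and COX8A of 1.66 (adjusted p = 1.3e-07). COX4I1, of which no liver form was listed, was higher in muscle (log2 fold change -1.51, SE 0.18, adjusted p = 2.6e-06). So was COX4I2, known from lung, at 1.39 to 4.74 CPM (median 2.43) against at most 0.318 CPM in liver.

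Other mitochondrial families followed the listed partners. SLC25A4, the adenine nucleotide translocase of muscle, was at 711 to 2378 CPM (median 1385) in muscle and 74.9 to 188 CPM (median 120.3) in liver (log2 fold change -3.48, SE 0.21, adjusted p = 2.9e-09), and SLC25A5 was higher in liver (log2 fold change 2.38, SE 0.26, adjusted p = 1.8e-07). SUCLA2, the ATP-forming beta subunit of succinyl-CoA synthetase, was higher in muscle (log2 fold change -3.51, SE 0.18, adjusted p = 2.8e-10), and the GTP-forming SUCLG2 was higher in liver (log2 fold change 0.95, SE 0.12, adjusted p = 5.4e-05). IDH1, cytosolic isocitrate dehydrogenase, was at 247 to 639 CPM (median 339.7) in liver and 22.8 to 119 CPM (median 41.3) in muscle (log2 fold change 2.87, SE 0.27, adjusted p = 6.3e-08), and IDH2, the mitochondrial form, at 276 to 608 CPM (median 482) in muscle and 24.2 to 105 CPM (median 43.8) in liver (log2 fold change -3.17, SE 0.19, adjusted p = 1.6e-09). UCP3, an uncoupling protein homologue of skeletal muscle, was at 148 to 1741 CPM (median 537) in muscle and held 13 reads over the livers. All 3 malic enzymes were higher in muscle, with ME1, the cytosolic source of NADPH, at 16.1 to 49.5 CPM (median 35.5) against 1.35 to 25.1 CPM (median 2.3) (log2 fold change -3.35, SE 0.36, adjusted p = 1.7e-07).

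In lipid metabolism, the liver-only members included those of fatty acid binding and hepatic lipase. FABP1, liver fatty acid binding protein, was at 102 to 1639 CPM (median 908) and at most 0.56 CPM in muscle, while FABP3, the heart and muscle form, was at 105 to 828 CPM (median 274) in muscle and 1.34 to 3.29 CPM (median 2.25) in liver (log2 fold change -7.12, SE 0.35, adjusted p = 5.5e-11). LIPC, hepatic lipase, was at 119 to 301 CPM (median 159) in liver and at most 0.356 CPM in muscle. LPL, lipoprotein lipase, was at 39.0 to 375 CPM (median 201) in muscle and 7.32 to 26.9 CPM (median 12.4) in liver (log2 fold change -3.64, SE 0.44, adjusted p = 9.0e-07).

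Acetyl-CoA carboxylase did not have a liver counterpart of its muscle form. ACACB, which makes the malonyl-CoA that holds back fatty acid entry into mitochondria, was at 354 to 1943 CPM (median 749.7) in muscle and 2.7 to 15.2 CPM (median 5.44) in liver (log2 fold change -7.11, SE 0.36, adjusted p = 1.5e-10). ACACA, the form of fatty acid synthesis, did not pass the test (log2 fold change -0.32, SE 0.33, adjusted p = 0.33). In ruminants, fatty acids are made mainly in adipose tissue rather than in liver, and whether this bears on these levels was not tested. ACSS2 and DGAT2, both listed for liver, also had negative log2 fold changes (log2 fold change -1.28, SE 0.44, adjusted p = 0.0064 for ACSS2, and log2 fold change -0.97, SE 0.52, adjusted p = 0.064 for DGAT2, which did not pass). DGAT2 did pass under 9 alternatives, among them DESeq2, limma-voom and the edgeR likelihood ratio test (adjusted p 0.00194 to 0.0419). ACSS3, a mitochondrial acyl-CoA synthetase that favours propionate, was at 128 to 487 CPM (median 219) in liver and 14.2 to 26.2 CPM (median 20.2) in muscle (log2 fold change 3.53, SE 0.23, adjusted p = 1.6e-09). ACSL5 was at 60.3 to 117 CPM (median 73.8) in liver and 0.568 to 2.02 CPM (median 1.57) in muscle (log2 fold change 5.70, SE 0.25, adjusted p = 3.7e-12), and CPT1B, the muscle carnitine palmitoyltransferase, was at 74.7 to 216 CPM (median 109) in muscle and 4.49 to 48.2 CPM (median 13.2) in liver (log2 fold change -3.20, SE 0.45, adjusted p = 2.5e-06).

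Adipocyte markers were read in both tissues. The 5 adipocyte markers with a row summed to 26.8 to 424 CPM (median 77.3) in muscle and 10.4 to 19.6 CPM (median 13.6) in liver, and none was at 0 in every library of either tissue. Cow 5 had the highest sum. Its muscle also had the highest level of FABP4, the adipocyte fatty acid binding protein (114 CPM, 4.14 to 114 CPM (median 17.8) over the 10 muscles), of DGAT2 (221 CPM), of ACACA (178 CPM) and of ACSS2 (189 CPM). The muscle of cow 4 had ACACA at 135 CPM, DGAT2 at 97.4 CPM and ACSS2 at 105 CPM, but FABP4 at only 11.2 CPM. The part of adipocytes in these values was not tested.

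Amino acid and hormone enzymes held 3 members used by liver only. ARG1, the arginase of the urea cycle, was at 203 to 750.4 CPM (median 477) in liver and at most 0.312 CPM in muscle, and ARG2 did not pass the test (log2 fold change -0.40, SE 0.50, adjusted p = 0.41). MAT1A, the methionine adenosyltransferase of the adult liver, was at 233 to 1147 CPM (median 566) in liver and held 11 reads over the 10 muscles, the widest fitted difference among liver-only members (log2 fold change 12.53). Its partner MAT2A, the form of other tissues, was also higher in liver, at 301 to 559 CPM (median 423) against 136 to 429 CPM (median 205) (log2 fold change 1.07, SE 0.19, adjusted p = 1.6e-04). DIO1, the deiodinase that forms active thyroid hormone in liver, was at 185 to 844 CPM (median 408) in liver and held 16 reads over the muscles. DIO2, the deiodinase known from muscle, held 28 reads over the 10 muscles and did not pass the filter.

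GLS2, liver glutaminase, was at 59.1 to 308 CPM (median 119) in liver and 0.379 to 2.3 CPM (median 1.02) in muscle (log2 fold change 6.78, adjusted p = 5.8e-13), and did not meet the rule. The carbonic anhydrases were among the opposed families. CA5A, the mitochondrial carbonic anhydrase of liver, was at 5.94 to 23.7 CPM (median 10.9) in liver and held 5 reads over the muscles, and CA3, abundant in slow muscle fibres, was at 1164 to 5736 CPM (median 3100.5) in muscle and 121 to 465 CPM (median 231) in liver (log2 fold change -3.60, SE 0.31, adjusted p = 6.4e-08). CA14, listed for liver, was at 72.3 to 224 CPM (median 101) in muscle and 1.46 to 24.5 CPM (median 8.35) in liver (log2 fold change -3.84, SE 0.48, adjusted p = 6.3e-07). Alanine aminotransferase showed the same departure: GPT, the cytosolic form used as a marker of liver damage, was at 0 to 2.54 CPM (median 1.13) in liver and 5.52 to 35.1 CPM (median 17.2) in muscle, without overlap (log2 fold change -3.76, adjusted p = 2.5e-06), and GPT2, the mitochondrial form, was higher in muscle as well (log2 fold change -2.23, SE 0.42, adjusted p = 5.3e-05).

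The calcium pump and the calcium release channel of fast muscle were used by muscle only. ATP2A1, the calcium pump of fast fibres, was at 3985 to 15839.7 CPM (median 9079.5) in muscle and 0.934 to 12.5 CPM (median 3.18) in liver, and RYR1, the calcium release channel of skeletal muscle, at 2665 to 11566 CPM (median 4938) and 2.74 to 9.61 CPM (median 6.66). ATP2A2, which encodes both the pump of slow fibres and the housekeeping form of other cells, was listed for liver but was at 849 to 6299.8 CPM (median 3226) in muscle and 84.2 to 379.6 CPM (median 222) in liver (log2 fold change -3.79, SE 0.18, adjusted p = 9.3e-10). A count per gene does not separate these forms. ATP2A3, known from blood and secretory cells, was higher in liver (log2 fold change 1.57, SE 0.12, adjusted p = 1.3e-07). Among lactate carriers, SLC16A3 of glycolytic fibres was higher in muscle (log2 fold change -4.41, SE 0.33, adjusted p = 2.5e-09), and so was SLC16A1 (log2 fold change -1.03, SE 0.23, adjusted p = 4.8e-04), while SLC16A7 was higher in liver (log2 fold change 3.27, SE 0.26, adjusted p = 8.5e-09).

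Translation uses tissue forms too. EEF1A2, the elongation factor of muscle and neurons, was at 2363 to 5110.1 CPM (median 4026) in muscle and 0.0612 to 6.65 CPM (median 0.639) in liver, and the broad form EEF1A1 was at 244 to 596 CPM (median 381) in liver and 44.6 to 144 CPM (median 86.9) in muscle (log2 fold change 2.23, SE 0.24, adjusted p = 4.3e-07). The ribosomal protein RPL3L, a striated muscle form, was at 104 to 350.5 CPM (median 205) in muscle and 0.264 to 4.45 CPM (median 1.03) in liver, with RPL3 higher in liver (log2 fold change 1.43, SE 0.19, adjusted p = 8.0e-06). Thus in both families the broad form was lower where the muscle form was used.

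In the actins and alpha-actinins, the broad forms did not pass the test in either direction. ACTA1, skeletal alpha-actin, was at 29058 to 72949.5 CPM (median 45345) in muscle and 1.53 to 59.1 CPM (median 4.84) in liver, while the cytoplasmic actins ACTB and ACTG1 did not pass the test (adjusted p = 0.21 and 0.87). ACTN2 and ACTN3, the alpha-actinins of the Z-disc, were at 1839 to 13435 CPM (median 5367) and 1320.4 to 4897 CPM (median 3144) in muscle and at 1.76 to 10.1 CPM (median 2.43) and 0.184 to 3.63 CPM (median 0.59) in liver, while ACTN1 and ACTN4 did not pass (adjusted p = 0.51 and 0.16). FLNC and the broad FLNA were both higher in muscle (log2 fold change -10.25, adjusted p = 1.5e-10 for FLNC), with FLNA less so (log2 fold change -2.57, SE 0.25, adjusted p = 1.2e-07). Among intermediate filament proteins, the epithelial keratins KRT8 and KRT18 were at 46.4 to 319.5 CPM (median 107) and 65.4 to 403 CPM (median 234) in liver and at 0.833 to 3.73 CPM (median 1.997) and 0.416 to 1.98 CPM (median 0.785) in muscle, and VIM, vimentin of mesenchymal cells, was higher in muscle (log2 fold change -2.88, SE 0.19, adjusted p = 5.1e-09). The 5 fibroblast markers summed to 1645 to 6363 CPM (median 2297) in muscle and 308 to 513 CPM (median 361) in liver, and their part in the VIM and FLNA values was not tested. The actins are much alike in coding sequence and only uniquely aligned reads were counted, so their counts are uncertain, as may be those of PGAM1, SLC25A5, EEF1A1, RPL3 and the tropomyosins. How many reads this removed was not tested.

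Counted by family, 60 families had at least 2 members past the filter. In 33 of them, 1 or more members were at least 2-fold higher in liver and 1 or more at least 2-fold higher in muscle. In 18 families the members past 2-fold were all higher in muscle, in 8 all higher in liver, and in 1 no member passed 2-fold. Over all genes tested, 25.5% were at least 2-fold higher in liver and 22.8% in muscle, so some families would be opposed at these shares alone. The members were also listed for known tissue differences, so nothing is read from the number of opposed families. Of the opposed families, 17 held a member used by 1 tissue only. No family held a liver-only and a muscle-only member at the same time. In each pair at least 1 partner thus missed the rule, as did ALDOA at 74.8 to 187 CPM (median 124) in liver or PYGL at 12.3 to 47.2 CPM (median 34.9) in muscle. Without bull 3 the count of opposed families was again 33.

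**Figure D3:**
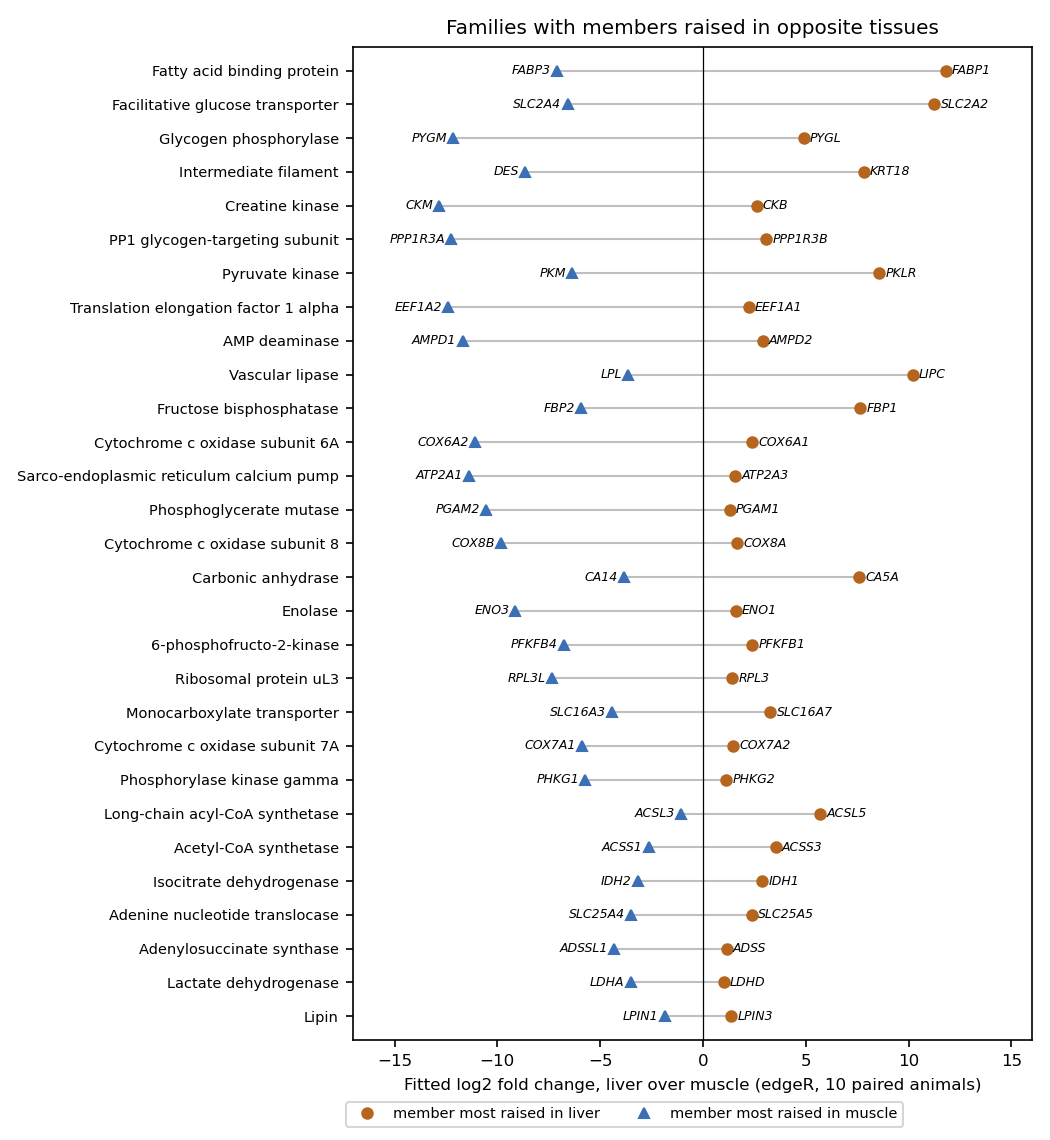
Fitted log2 fold change of liver over muscle (horizontal axis) in 29 of the opposed families (rows), with a circle for the member most raised in liver and a triangle for the member most raised in muscle. The distance between partners ranges from 3.23 in lipin to 18.92 in the fatty acid binding proteins.

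The listed tissue was then set beside the measured direction. Of 59 tested members listed for muscle, 57 were higher in muscle (34.8% over all genes tested), BCAT2 did not pass and MAT2A was higher in liver. Of 61 listed for liver, 42 were higher in liver (37.2% over all genes tested), 8 did not pass and 11 were higher in muscle. The difference between the 2 lists was not tested. The members were listed for known tissue differences and with earlier results of these data known, so this agreement is a description and no support for the list. Among the 11 members listed for liver but higher in muscle were PRKAA1, PRKAB1, GPD1, ACSS2, GPT, CA2, CA14, SLC16A1, ATP2A2 and FLNA. For the 2 kinase subunits, the calcium pump and FLNA, the list names a broad form as the liver form. It did not do so in every family, since COX4I1 and PGM1 were listed as broad.

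Some members varied widely among animals of a tissue. FLNC, the filamin of striated muscle, ran from 2558 CPM in cow 1 to 127784 CPM in cow 4, with 4671 CPM in cow 3, 5482 CPM in cow 2 and 9712 to 34304 CPM in the other 6. ACTC1, cardiac alpha-actin, which is re-expressed in immature fibres, was at 3.59 CPM in cow 5, 17.9 to 44.8 CPM in cow 1 to cow 3 and 376 to 1599.6 CPM in the other 6 animals. PDK4 was at 120.1 CPM in cow 2 and 9067 CPM in cow 5. ACTC1 and PDK4 had the widest SD of log2 levels within muscle among all members, yet each of the 3 genes was higher in muscle than in liver in every animal.

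In liver, LPIN1, a phosphatidate phosphatase, was at 1663 CPM in bull 5 and at most 202 CPM in the other 9 animals, and its difference between tissues was not stable (log2 fold change -1.86, SE 0.81, adjusted p = 0.036): leaving out cow 4, cow 5, bull 1, bull 2 or bull 3 gave an adjusted p of 0.0737 to 0.0896 for LPIN1, and the fit without the block gave 0.31. HMGCS1, of cholesterol synthesis, was at 2162 CPM in the liver of cow 4 and 2488 CPM in the liver library labelled bull 3, against 81.1 to 592 CPM in the other 8. ACSS2 was highest in the same livers, at 204 and 197 CPM, with 7.78 to 30.4 CPM in the other 8. ACACA followed, at 109 and 96.4 CPM against 25.8 to 45.9 CPM. These 2 livers are the pair whose profiles were most alike, and whether they come from separate animals was not tested. AK4, a mitochondrial nucleotide kinase, was at 106 CPM in bull 2, 43.3 CPM in bull 1 and 40.6 CPM in bull 4, and at 2.80 to 9.50 CPM in the other 7 livers.

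**Figure D4:**
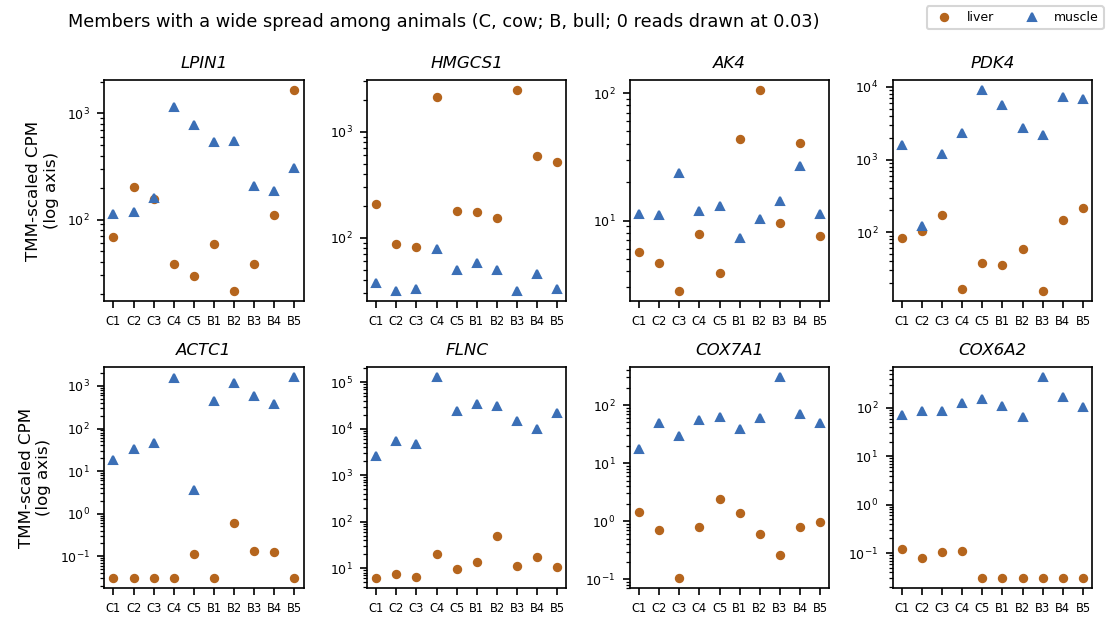
TMM-scaled CPM (vertical log axes) of 8 members with a wide spread, by animal (horizontal axes; C, cow, B, bull), with circles for liver and triangles for muscle. LPIN1 reaches 1663 CPM in the liver of bull 5, HMGCS1 reaches 2162 and 2488 CPM in the livers of cow 4 and of the library labelled bull 3, and COX7A1 and COX6A2 reach 299.9 and 428 CPM in the muscle of bull 3.

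The muscle of bull 3 was the shallowest library, with 5173092 reads on genes, and it held the highest levels of 3 cytochrome c oxidase members. COX7A1 was at 299.9 CPM there against 17.8 to 71.1 CPM in the other 9 muscles, COX6A2 at 428 CPM against 63.4 to 166 CPM, and COX8B at 311 CPM against 51.5 to 131 CPM. The muscle of cow 4 instead held the highest RYR1 (11566 CPM) and ACTN2 (13435 CPM). Without these libraries, each of these genes was still above its highest liver level in every animal.

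The low muscle signal in liver was unequal among animals. In the liver of bull 2, ACTA1 was at 59.1 CPM against 1.53 to 13.8 CPM in the other 9 livers, CKM at 12.4 CPM against 0 to 4.18 CPM, EEF1A2 at 6.65 CPM against 0.0612 to 1.32 CPM and ACTN3 at 3.63 CPM against 0.184 to 0.954 CPM. Bull 2 had the highest liver level of 9 of the 20 muscle-only members. It had no read of PRKAG3, UCP3 and COX6A2. The myofibre markers summed to 93.5 CPM in this liver, 0.106% of the sum in the muscle of the same animal, against 0.00686% to 0.0312% in the other 9 animals; their part in the muscle-only values was not tested. Without bull 2, the members used by liver only and by muscle only numbered 11 and 21.

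**Figure D5:**
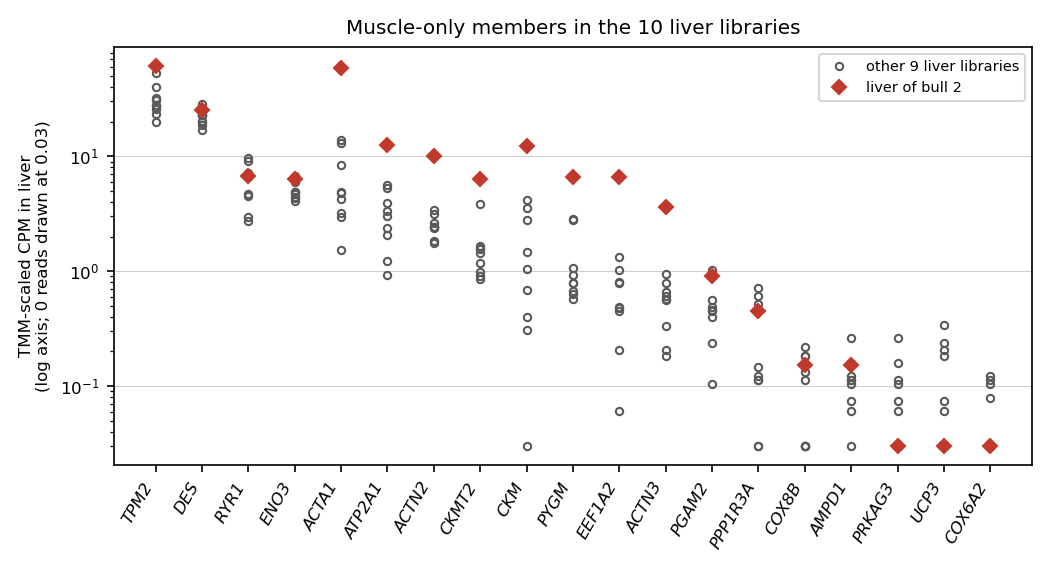
TMM-scaled CPM (vertical log axis) of 19 muscle-only members (horizontal axis) in the 10 liver libraries, with bull 2 as a filled diamond and the other 9 livers as open circles. ACTA1, CKM, PYGM, EEF1A2 and ACTN3 stand apart in bull 2, whereas ENO3, DES and RYR1 do not.

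Liver signal was also read in muscle. The liver-only members summed to 1.70 to 6.38 CPM in the muscle libraries, 0.0225% to 0.0774% of the sum in the liver of the same animal. The hepatocyte markers, which include the far more abundant ALB, summed to 11.2 to 119 CPM (median 59.5) in muscle, 0.00485% to 0.109% of the liver of the same animal.

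The other 2 tissues of these animals show which members are off beyond liver and muscle. They were not used by the rule, and levels were scaled over all 40 libraries. Of the 11 liver-only members, LIPC, ARG1, DIO1 and SLC2A2 were under 1 CPM in every fat and every pituitary library. MAT1A had the highest pituitary level of the 11, at 7.19 to 18.0 CPM (median 10.3), and GYS2 was at 0.681 to 4.27 CPM (median 2.08) in fat. Of the 20 muscle-only members, COX6A2 and UCP3 were under 1 CPM in every library of both. EEF1A2 was at 402 to 821 CPM (median 561) in the pituitary gland and 0.966 to 12.2 CPM (median 2.17) in fat, and it is known from nerve tissue. TPM2 and DES were at 108 to 1666 CPM (median 224) and 72.6 to 1422 CPM (median 178) in fat, with the highest value of each in bull 5. These 3 muscle-only members thus held at least 10 CPM in every library of fat or of the pituitary gland. Others were read there at lower levels. ENO3 was at 6.83 to 41.9 CPM (median 12.0) and ACTA1 at 1.94 to 50.8 CPM (median 10.4) in fat, and PRKAG3 at 5.02 to 20.2 CPM (median 10.3) in the pituitary gland. In every fat library ACTA1 stayed under 1% of its lowest muscle library. The part of stray muscle tissue in these values was not tested. Of the 20, the median reached 10 CPM for 4 in fat and for 5 in the pituitary gland. It was under 1 CPM for 5 and 6.

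Outside the families, 243 genes were used by liver only and 110 by muscle only. The 3 with the highest lowest library place the members. In liver these were ALB, serum albumin, at 54334 to 147608 CPM (median 92026), FGB, a fibrinogen chain, at 27698 to 111917 CPM (median 48559), and C3, a complement protein, at 22467 to 43019.8 CPM (median 33001). In muscle they were MYH2, a fast myosin heavy chain, at 9834 to 44195 CPM (median 18712), MYBPC1, a myosin binding protein, at 9646 to 18006 CPM (median 11984), and FHL1, a muscle LIM protein, at 8985 to 15898 CPM (median 12576). Levels of different genes are not comparable, since they are not per length.

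Values next to the limits of the rule are given as a description. Just inside, CKMT2 had a highest liver library at 0.638% of its lowest muscle library, and PRKAG3 had a lowest muscle library of 23.4 CPM. Just outside, AK1 reached 2.33 CPM in liver, 1.07% of its lowest muscle library. CA5A failed on its lowest liver library of 5.94 CPM, and ACTC1 on its muscle of 3.59 CPM in cow 5.

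Whether the difference between liver and muscle depended on sex was asked with the interaction of tissue and sex in the same fit, in which the liver library labelled bull 3 entered as male by its label although it lacks Y-linked reads. With the quasi-likelihood test, 0 of 9927 genes passed, and 620 had an unadjusted p under 0.05. Among the members, 20 had an unadjusted p under 0.05, and the smallest adjusted p was 0.503. The edgeR likelihood ratio test called 32 genes, none of them a member. Without bull 3, 0 genes passed.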

How the data were processed

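Poly-A RNA was sequenced from both ends. The authors removed adapters using Trimmomatic, mapped the reads onto bosTau7 through Tophat2 (which calls Bowtie2) and used HTSeq to count those with a single alignment; the deposited values are raw counts for each gene symbol and library. The counting mode and strandedness are not given in the sources used here. Members that share sequence with a close copy may therefore lose reads.

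From these counts, the row without a gene name (0.355% to 2.69% of reads) and the HTSeq summary rows were left out. Genes were filtered with filterByExpr by tissue, scaled with TMM and tested with edgeR 4.0.16 (R 4.3.3) by glmQLFit and glmQLFTest with animal as a block and Benjamini-Hochberg adjustment. The fits were tested on simulated counts. The SE is that of the log2 ratio over the 10 animals, given where every library held at least 3 reads. No molecular identifiers are described, so reads are not independent molecules. Alternatives were the likelihood ratio test, DESeq2 1.42.0, limma 3.58.1 with voom, no block, other scalings and filters, a 4-fold threshold, other limits of level and leaving out each animal.

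Ear tags pair the libraries. Over genes, the deviations of an animal's liver and muscle from the tissue means correlated at -0.042 to 0.443 (median 0.128). Between animals the median was -0.025. The lowest value, -0.042, was that of bull 3, whose liver library goes against its label. For 3 animals, the muscle that correlated best with the liver was the animal's own. For the others it was the muscle of another animal, so these correlations do not establish each pair.

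The members and lists were chosen with earlier results of these data known. The genes named are the members used by 1 tissue only, other members of the listed families, and 3 further genes per direction, besides marker and sex-linked genes. Not every family named holds a member used by 1 tissue only. Leading members per transcript length, which the plan asked for, could not be computed because the reference table gives genomic spans; the count of opposed families replaced them after the data were seen. Promoter motifs were not analysed here. Some members enter the counts but are not reported here by name. Of 202 members, 18 had no row under a symbol or synonym and were not analysed here.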

Additional observations from a re-analysis of the deposited data

Results flagged for a closer look

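In some members a single library stood apart from the other 9 of its tissue: its gap to the nearest library took a larger share of the whole range than Dixon's 95% critical value for 10 samples. Among 86 members used by 1 tissue only or at least 2-fold higher in either tissue within an opposed family, 157 sets of 10 levels reached 1 CPM in their highest library, and in 33 cases a library stood apart. Chance gives about 1 in 20 for normally distributed values, and the CPM were not transformed, so this rate may not apply; 32 of the cases were a highest library and 11 came from the liver of bull 2. Each gap is given below as a share of the range, with the level of the library and of its nearest neighbour.

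In the liver of bull 2, PYGM was highest with a share of 0.628 (6.65 CPM, next 2.83 CPM), CKM was highest with a share of 0.662 (12.4 CPM, next 4.18 CPM) and ATP2A1 was highest with a share of 0.6 (12.5 CPM, next 5.58 CPM). There, EEF1A2 was highest with a share of 0.809 (6.65 CPM, next 1.32 CPM), ACTA1 was highest with a share of 0.786 (59.1 CPM, next 13.8 CPM) and ACTN2 was highest with a share of 0.804 (10.1 CPM, next 3.4 CPM). There, ACTN3 was highest with a share of 0.776 (3.63 CPM, next 0.954 CPM), FABP4 was highest with a share of 0.729 (8.46 CPM, next 2.64 CPM) and FABP5 was highest with a share of 0.601 (12.8 CPM, next 5.19 CPM). There, LPL was highest with a share of 0.67 (26.9 CPM, next 13.8 CPM) and KRT8 was highest with a share of 0.526 (319.5 CPM, next 176 CPM). In the liver of bull 5, PYGL was highest with a share of 0.472 (1689.8 CPM, next 1184 CPM) and LPIN1 was highest with a share of 0.89 (1663 CPM, next 202 CPM). In the liver of cow 2, PKLR was highest with a share of 0.503 (263 CPM, next 159 CPM), LDHD was highest with a share of 0.479 (31.5 CPM, next 19.4 CPM) and CKB was highest with a share of 0.617 (37.7 CPM, next 20.5 CPM). There, LPIN3 was highest with a share of 0.486 (50.8 CPM, next 32.6 CPM). In the liver of cow 5, RPL3 was highest with a share of 0.513 (660.4 CPM, next 429 CPM). In the muscle of bull 3, COX6A2 was highest with a share of 0.719 (428 CPM, next 166 CPM), COX8B was highest with a share of 0.691 (311 CPM, next 131 CPM) and PYGL was lowest with a share of 0.508 (12.3 CPM, next 30.0 CPM). There, COX7A1 was highest with a share of 0.811 (299.9 CPM, next 71.1 CPM). In the muscle of cow 4, RYR1 was highest with a share of 0.639 (11566 CPM, next 5878 CPM) and ACTN2 was highest with a share of 0.522 (13435 CPM, next 7379.7 CPM). There, AMPD2 was highest with a share of 0.735 (48.8 CPM, next 18.4 CPM) and SLC2A4 was highest with a share of 0.498 (512 CPM, next 292 CPM). In the muscle of cow 5, PGAM2 was highest with a share of 0.574 (1661 CPM, next 1045 CPM), UCP3 was highest with a share of 0.564 (1741 CPM, next 843 CPM) and PFKFB3 was highest with a share of 0.468 (1667 CPM, next 959 CPM). There, ALDOA was highest with a share of 0.562 (22872 CPM, next 13835 CPM), FBP1 was highest with a share of 0.803 (11.9 CPM, next 3.02 CPM) and ACSS2 was highest with a share of 0.523 (189 CPM, next 105 CPM). There, SLC16A3 was highest with a share of 0.498 (88.3 CPM, next 50.8 CPM).

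Reads without a gene name lay outside the comparisons. They were 0.355% to 0.488% of reads in liver and 0.448% to 2.69% in muscle, and the highest share was in the muscle of bull 5.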

How the results depend on the processing

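Over the tests, scalings, filters and limits tried, each count stayed within 1.5 times its value in the report, except under the 4-fold threshold and for the interaction with sex. The 4-fold threshold, by its construction, left 1159 genes higher in liver and 929 higher in muscle, 30 members higher in liver and 64 in muscle, and 16 opposed families. Without the block, so that the libraries were not paired, 3597 genes were higher in liver and 3413 in muscle, 58 and 86 members, and 31 families were opposed, against 3689, 3454, 60, 86 and 33 with it; the block changed no other count by over 1.5 times. The stricter and the looser limits of level left 10 to 12 liver-only and 16 to 23 muscle-only members. Leaving out each animal gave 3475 to 3686 genes higher in liver, 3323 to 3488 in muscle, 11 liver-only and 20 to 21 muscle-only members, and 31 to 35 opposed families. For the interaction with sex, the likelihood ratio test called 32 genes, and leaving out each animal gave 0 to 18; the 18 came without cow 4, and the cause was not tested. Of 169 members, 154 kept their direction and side of the threshold under every alternative run on single members (the 4-fold threshold was not), and none reversed. The other 15 had small or variable differences, among them ACSL1, LPIN1, PDK3 and ITPR2, which lost their call under some, and DGAT2, which gained one under 9; without the block ACSS2 also lost its call (adjusted p = 0.454). The leading member per transcript length was not run under any alternative. Depth limits the off state: 3 reads are 0.181 to 0.58 CPM.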

Other observations

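Other cell types also differed in the sums of their marker lists, given here as values. The 4 macrophage markers with a row summed to 616 to 1411 CPM (median 1072) in liver and 48.5 to 281 CPM (median 166) in muscle, and the 5 lymphocyte and pan-leukocyte markers to 67.4 to 215 CPM (median 104) and 7.39 to 64.7 CPM (median 20.2); in both lists the ranges did not overlap. The 4 smooth muscle markers summed to 119 to 409 CPM (median 205) in liver and 368 to 844 CPM (median 556) in muscle, and the 3 nerve and Schwann cell markers to 3.38 to 13.3 CPM (median 5.52) and 27.1 to 124 CPM (median 76.7). The 5 endothelial markers overlapped, at 280.5 to 684 CPM (median 427) in liver and 423 to 652 CPM (median 545) in muscle. The 3 bile duct markers with a row summed to 10.4 to 78.7 CPM (median 23.8) in liver and 0.758 to 7.18 CPM (median 2.32) in muscle. The erythroid list was near 0 in both tissues, at most 8.52 CPM in liver and 0.416 CPM in muscle.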
